A study of Homo sapiens with 12 samples.

Results

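Gene expression was compared between U937 cultures given the phorbol ester PMA and cultures given its DMSO vehicle, with the inducible hairpin of the line left off in both. These were 6 of the 12 arrays of the study, chosen by their titles: 3 labelled PMA treated and 3 labelled vehicle treated, all without doxycycline. U937 is a human histiocytic lymphoma line that resembles an immature monocyte. Every culture, controls included, came from U937 cells stably transduced with a TRIPZ Tet-On cassette for a hairpin RNA against ZXDC1 and ZXDC2, and kept in puromycin. PMA was given at 100 nM and DMSO at 0.1%, and the cells then had 3 days to differentiate. The other 6 arrays came from the same agents with 0.5 µg/mL doxycycline, given daily for 4 days from 2 days before the agent, and are used here only for comparison. The study was designed to find targets of ZXDC1 in this differentiation, and the comparison described here is the differentiation itself, before any induced knockdown.

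PMA mimics diacylglycerol, the lipid messenger that activates protein kinase C. Protein kinase C in turn feeds the Ras and MAP kinase cascade, which switches on early response factors of the AP-1 and EGR families. In U937 and related lines this leads to growth arrest, adhesion to the dish and the appearance of surface receptors, proteases and secreted factors of macrophages.

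The labels call the arrays of each group biological replicates 1 to 3, without saying how the cultures were separated. The p-values thus measure the spread between arrays within groups, pooled over all 4 groups and moderated across genes. Array medians ran from 5.16 to 5.22 (log2 signal). Arrays within a group correlated at 0.988 to 0.996 across all 54675 probe sets, and PMA arrays correlated with vehicle arrays at 0.960 to 0.967. The arrays numbered 1 had the largest gap between the 3' and 5' ACTB control probe sets, a sign of shorter labelled RNA, at 1.99 in vehicle and 2.39 in PMA, against 1.01 to 1.29 (log2) on the other 4. The gap was thus present in both groups, and without the arrays numbered 1 the count of genes called was 7019, against 6260 with them. ZXDC, the target of the hairpin, read 8.01, 7.63 and 7.69 in vehicle and 7.96, 7.89 and 7.51 in PMA, and the groups overlapped. With doxycycline it read 7.16, 7.25 and 7.44 in vehicle and 7.39, 7.43 and 7.02 in PMA. Markers expected of the line were bright in both groups: the mean of the 12 measured line markers was between 8.37 and 8.59 on the vehicle arrays and between 9.18 and 9.54 on the PMA arrays. Of these 12, 1 lay under the 25th percentile of all genes in both groups: MPO, myeloperoxidase, at 4.47, 4.07 and 4.44 in vehicle and 3.96, 4.50 and 4.45 in PMA.

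PMA changed close to 1 gene in 3. Of the 19775 genes tested, 6260 (31.7%) were called, 2518 (12.7%) up and 3742 (18.9%) down. A call here is a Benjamini-Hochberg adjusted p under 0.05 over all genes in limma. A difference is PMA minus vehicle on the log2 scale, given with its standard error (±) for 3 arrays against 3. That error rests on the moderated variance from all 12 arrays. Array values are log2 signals in the order of replicates 1 to 3. More genes fell than rose, but the large changes were rises. By at least 1, 898 genes rose and 1240 fell. By at least 2 the counts were 284 and 208, by at least 3 they were 132 and 21, and by at least 4 they were 66 and 1, the latter MS4A3. The median difference of all genes was 0.01, that of the called rises 0.78 and that of the called falls -0.77, with a median standard error of 0.14. The vehicle and PMA arrays did not overlap for 6118 of the called genes, against 8268 (41.8%) of all genes tested.

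**Figure D1:**
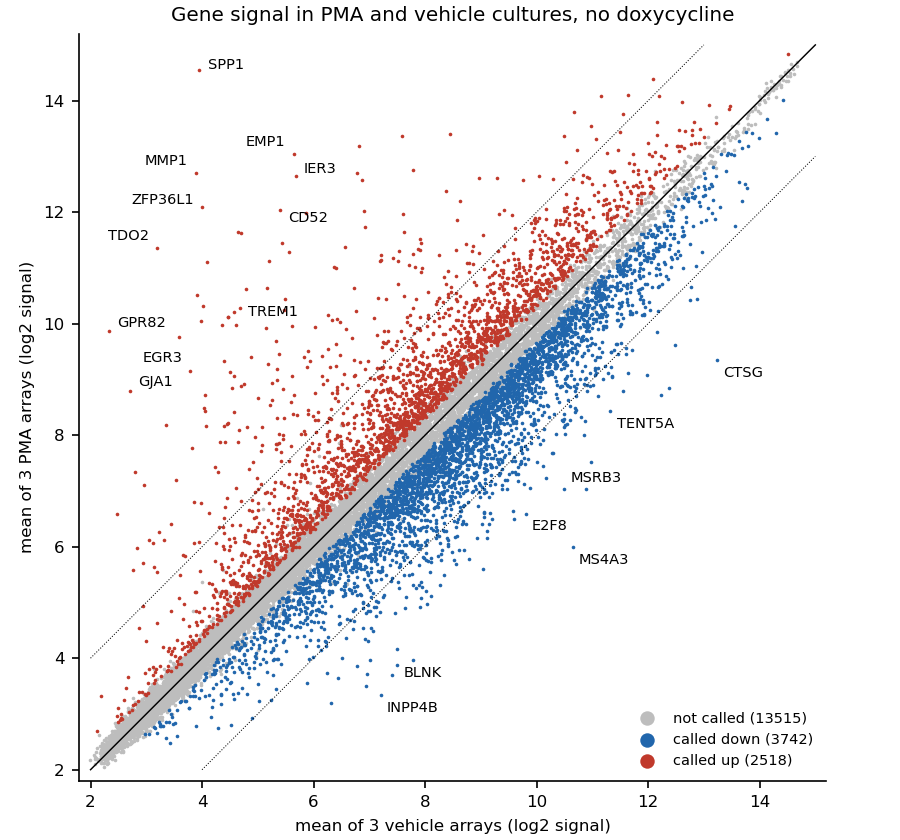
Mean log2 signal of every gene tested over the 3 vehicle arrays (horizontal axis) and the 3 PMA arrays (vertical axis), without doxycycline. Each point is a gene, red where it was called up (2518), blue where it was called down (3742) and grey otherwise; the solid line marks equal signal and the dotted lines a difference of 2. The points far above the diagonal outnumber those far below it, with 66 genes up by at least 4 and 1 down by that much.

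The probe set of highest mean stood for each gene, and this choice set the size of many differences. Of 192 called genes that the naming rule picked and that had more than 1 probe set, the mean over the probe sets gave a difference smaller by more than 1.5 times in 76, and 11 were no longer called. Of 263 with a probe set free of shared sequence, 26 were no longer called on it. Genes named below that lost their call in this way have the value beside them. Others stayed called but gave a smaller difference without probe sets of shared sequence: CD86 gave 2.67, GSN 1.27, LMNA 0.88, NFKBID 0.89, SQSTM1 1.36, KYNU 2.09, ZFP36L1 4.11, HNRNPLL 0.99 and RAB32 -0.88. With the mean over probe sets many genes named below differed by less, among them GSN (1.37), DUSP1 (1.28), TRIB1 (2.15), BCL2 (-0.57), A2M (3.34), VWF (3.61), TDO2 (4.52) and FABP4 (4.03). Of the genes named below, KPNA1 (0.15), SRF (-0.11) and CCND3 (0.50) were then not called.

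The rises included genes that vehicle cells barely showed. For 15 genes the mean signal passed from under the 25th percentile of all genes in vehicle to over the 75th in PMA, and no gene made the reverse passage. Besides the largest rises SPP1 (osteopontin), MMP1, TDO2, ZFP36L1, GPR82 and FABP4, these were A2M, SLC12A8, SUGCT-AS1, GJA1, HNRNPLL, COL6A3, EGR3, C22orf42 and LINC01282. GJA1, the gap junction protein connexin 43, read 2.41, 2.93 and 2.76 in vehicle and 8.78, 8.66 and 8.96 in PMA. A2M, alpha-2-macroglobulin, a broad protease inhibitor, read 4.0, 4.07 and 3.64 in vehicle and 10.43, 10.36 and 10.78 in PMA. COL6A3, a chain of collagen VI, read 4.83, 3.71 and 4.51 in vehicle and 10.44, 9.92 and 9.56 in PMA. In each of these 3 genes every PMA array stood several log2 units above every vehicle array, with differences of 6.09 ± 0.16, 6.62 ± 0.20 and 5.62 ± 0.29. A2M and HNRNPLL rested on 1 of their probe sets: a second A2M probe set gave 0.06, and without probe sets of shared sequence HNRNPLL gave 0.99 in place of 6.07.

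Among the 30 largest rises, which ran from 5.61 to 10.61, the highest adjusted p was 7.05e-06. Of these genes 16 had more than 1 probe set, and all 16 had every probe set in the same direction. This counts signs alone, so a nearly flat probe set passes, such as that of GDF15 given below. Several encode proteins of the macrophage surface or its secretions. CD52, a short glycosylphosphatidylinositol-anchored surface peptide, read 4.70, 6.07 and 5.42 in vehicle and 11.21, 12.45 and 12.47 in PMA. CXCL8, the neutrophil attractant interleukin-8, read 4.90, 6.24 and 6.47 in vehicle and 11.55, 11.99 and 12.39 in PMA. CCL2, the monocyte attractant, rose by 5.92 ± 0.64. The lowest PMA array of each lay above the highest vehicle array by several units, although the vehicle arrays of CXCL8 differed among themselves by more than 1. Others act inside the cell: RGS1, which shortens G protein signals (6.36 ± 0.26), SGK1, a serum- and steroid-regulated kinase (5.79 ± 0.25), TRIB1, a pseudokinase that directs protein degradation (5.73 ± 0.23), PHLDA1 (6.0 ± 0.16) and AQP9, a water and glycerol channel (5.84 ± 0.28). CHIT1, the chitinase that macrophages secrete, rose by 5.64 ± 0.50 and DCSTAMP, which macrophages need to fuse, by 5.93 ± 0.24. GDF15, a stress-linked cytokine, read 3.92, 4.60 and 4.87 in vehicle and 11.67, 9.37 and 9.29 in PMA, and without probe sets of shared sequence it gave 0.34, not 5.65. PMA array 1 stood above the other 2 for GDF15 by more than 2 units.

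The 30 largest falls, of 2.89 to 4.66 with adjusted p-values up to 2.14e-05, were led by MS4A3, a membrane protein. Primary granule genes among them were CTSG (-3.90 ± 0.28), ELANE (-3.51 ± 0.21) and PRTN3 (-3.32 ± 0.21). Genes of several other kinds included NOG, which blocks bone morphogenetic proteins (-3.44 ± 0.14), DEFB1, a defensin (-3.43 ± 0.35), and MSRB3, which repairs oxidised methionine (-3.45 ± 0.12). SLC40A1, the iron exporter ferroportin (-2.99 ± 0.18), and INPP4B, a phosphoinositide phosphatase (-3.87 ± 0.24), were also among the 30. SLC40A1 read 8.05, 7.84 and 7.81 in vehicle and 5.07, 4.90 and 4.77 in PMA and MSRB3 read 10.61, 10.44 and 10.42 in vehicle and 7.14, 6.88 and 7.10 in PMA. In neither gene did the groups overlap. Of the 12 genes among these 30 with more than 1 probe set, 10 had every probe set in the same direction, and GAS1 and INPP4B did not. GAS1, whose main difference was -3.05 ± 0.19, gave 0.13 without probe sets of shared sequence. For 10 of the 30 the PMA mean lay under the 25th percentile of all genes, so the fall ran down to the dim end of the scale.

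Promoter letters were counted for the genes with a promoter in the RefSeq table (build GRCh38.p14), each from 250 bases before the start to 50 bases after it. The letters were TGACTCA for AP-1, TTCCCGC or TTGGCGC for E2F, TTTGAA for the cell cycle homology region (CHR), AGGAAGT for ETS factors and GGACTTTCC or GGAATTTCC for NF-kB, on both strands, and none of them holds another. AP-1 letters stood in 4.09% of the 21485 promoters of all genes tested, in 9.28% of those of the 100 largest rises (97 promoters) and in 0.893% of those of the 100 largest falls (112 promoters). ETS letters stood in 8.18%, 16.5% and 11.6%, and NF-kB letters in 0.828%, 2.06% and 0.893%. These shares are counts of letters, with no test. The median GC content of the promoters was 62.7% for all genes, 54.7% for the rises and 60.3% for the falls, and its part in the shares was not tested. Of the 18 genes among the 30 largest rises that had a promoter in the table, 3 held AP-1 letters, and these are shown because AP-1 is the family of factors through which PMA is known to act. That count is of genes, not promoters, so the 4.09% of all promoters is not its background. EMP1, a membrane protein of the tetraspan type, lies at chr12:13196476-13196775 (plus strand), CXCL8 at chr4:73740319-73740618 (plus strand) and GJA1 at chr6:121435396-121435695 (plus strand), and the capitals mark the AP-1 letters, which begin at -175, -137 and -48 from the start.
EMP1: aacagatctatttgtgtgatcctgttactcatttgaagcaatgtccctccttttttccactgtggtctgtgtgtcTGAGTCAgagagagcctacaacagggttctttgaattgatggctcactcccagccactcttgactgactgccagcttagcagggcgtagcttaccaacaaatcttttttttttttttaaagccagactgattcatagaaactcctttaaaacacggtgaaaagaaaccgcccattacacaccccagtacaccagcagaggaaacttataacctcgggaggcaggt
CXCL8: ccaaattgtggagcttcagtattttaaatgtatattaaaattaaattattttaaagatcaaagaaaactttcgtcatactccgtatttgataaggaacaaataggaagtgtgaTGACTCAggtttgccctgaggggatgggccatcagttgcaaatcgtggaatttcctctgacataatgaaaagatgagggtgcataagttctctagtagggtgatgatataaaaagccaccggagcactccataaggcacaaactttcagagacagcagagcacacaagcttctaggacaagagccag
GJA1: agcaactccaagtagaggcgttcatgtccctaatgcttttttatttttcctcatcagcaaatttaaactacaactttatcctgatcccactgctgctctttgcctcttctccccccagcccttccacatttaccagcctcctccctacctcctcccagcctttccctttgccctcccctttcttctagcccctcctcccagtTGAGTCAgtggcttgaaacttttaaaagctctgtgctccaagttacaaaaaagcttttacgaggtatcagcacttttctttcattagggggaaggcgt

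Several genes of the protein kinase C family were lower after 3 days, and most genes that restrain MAP kinase signalling were higher. Of 13 measured genes for protein kinase C, protein kinase D and their substrates, 6 fell and 1 rose, with a median of -0.10, and 2 rose without PMA array 1. Over all genes tested 18.9% fell and 12.7% rose, the shares against which such counts are to be read. Small counts rested on few arrays: of 52 counts of 1 to 4 members called in a list, 21 moved by more than 1.5 times when some 1 array was left out, against 5 of 61 counts of 5 or more. PRKCQ, protein kinase C theta, read 7.19, 6.96 and 6.94 in vehicle and 5.48, 5.50 and 5.66 in PMA and fell by 1.48 (adjusted p 4.87e-07). MARCKS, the best known protein kinase C substrate, which ties actin to the membrane, read 11.67, 11.49 and 11.50 in vehicle and 9.57, 8.32 and 8.47 in PMA. PRKCB, the beta isoform, went the other way and rose by 0.91 ± 0.11. The PRKCQ and MARCKS arrays did not overlap between groups. Among 14 further diacylglycerol effectors and the kinases that remove diacylglycerol, 2 rose and 4 fell: the Ras activator RASGRP3 rose by 2.95 ± 0.20 and DGKH by 1.55 ± 0.16, whereas RASGRP2, which activates Rap1, changed by -1.36 ± 0.12. Without probe sets of shared sequence RASGRP3 gave 0.29 and RASGRP2 -0.05, neither called, and of 12 genes left 1 rose and 0 fell. In that list 4 rose without PMA array 1, and 2 fell without PMA array 2, PMA array 3, vehicle array 1 or vehicle array 2.

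Of 17 MAP kinase phosphatases and Sprouty or SPRED inhibitors, 11 rose and 1 fell, with a median of 1.36 against 0.01 for all genes. DUSP5, a nuclear phosphatase of ERK, read 6.95, 7.46 and 7.20 in vehicle and 11.20, 11.39 and 10.85 in PMA. DUSP1 rose by 3.34 ± 0.26 and SPRY2, an inhibitor of receptor signals to Ras, by 2.48 ± 0.23. DUSP16, which acts on JNK, fell by 0.60. The early response factors were higher in PMA after the 3 days: 16 of 19 rose and 1 fell, with a median of 1.54. NR4A3, an orphan nuclear receptor, read 4.78, 4.98 and 4.47 in vehicle and 9.45, 8.76 and 8.55 in PMA, and EGR3, a zinc finger factor, read 3.61, 4.06 and 3.71 in vehicle and 10.10, 8.83 and 8.53 in PMA. PMA array 1 was the highest for both, and vehicle and PMA stayed far apart. EGR1 itself read 5.18, 5.42 and 7.67 in vehicle and 6.84, 7.50 and 8.55 in PMA and was not called (1.54 ± 0.91), and vehicle array 3 lay within the PMA range. SRF, the serum response factor, was the single fall (-0.35 ± 0.11), and it was not called without PMA array 1 or vehicle array 3.

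**Figure D2:**
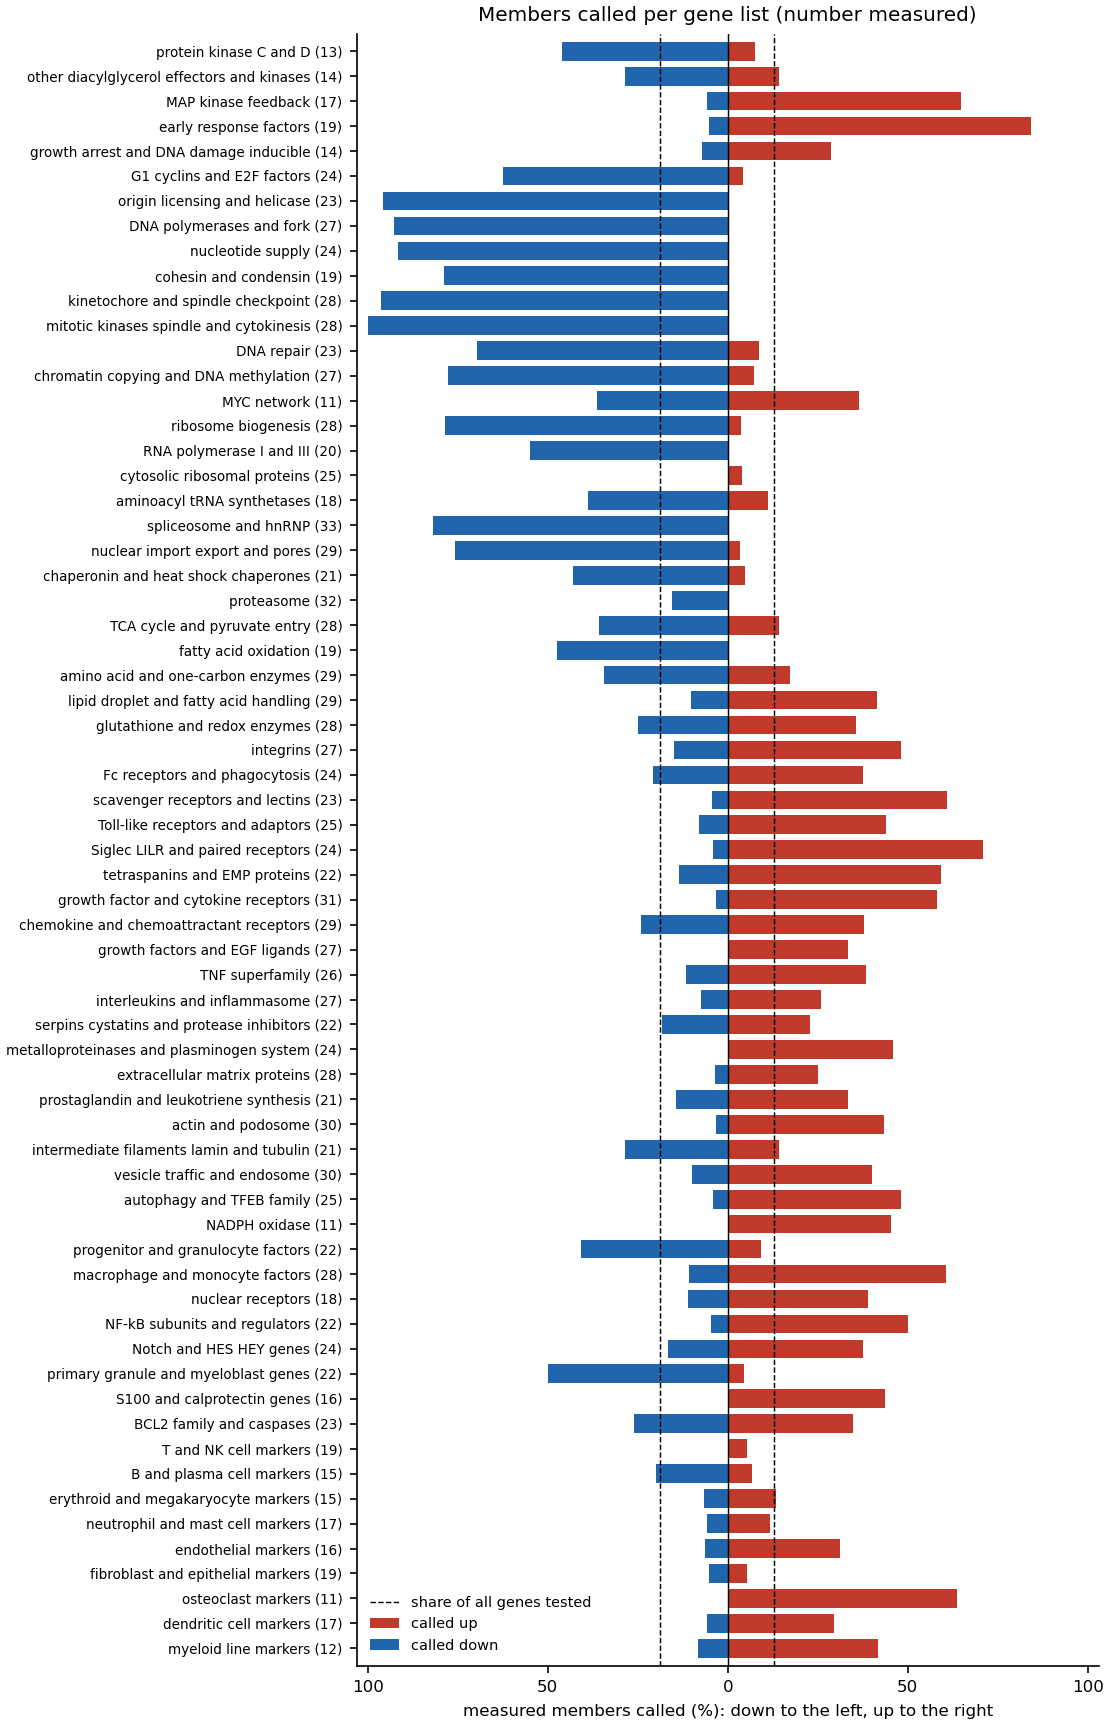
Share of measured members called up (red, to the right) and called down (blue, to the left) in each gene list reported here, in percent, with the number of measured members in brackets. The dashed lines are the shares of all genes tested, 12.7% up and 18.9% down; the lists of DNA replication and mitosis lie to the left, and the lists of early response factors, phosphatases, surface receptors and macrophage factors lie to the right.

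The genes that copy DNA fell together, at every step of the cell cycle that was listed. In bulk RNA, fewer cells in cycle and less RNA per cell cannot be told apart. Among 24 G1 cyclins, their kinases and the E2F factors, 15 fell and 1 rose, with a median of -1.19, or -0.67 with the mean over probe sets. CDK6, which drives the passage out of G1, averaged 11.06 ± 0.05 in vehicle and 9.11 ± 0.10 in PMA (SD, n = 3 each). FOXM1, the factor behind many mitotic genes, changed by -2.22 ± 0.21 and E2F8, a repressor of late S phase, by -3.21 ± 0.14. CCND3, cyclin D3, was the member that rose (0.85 ± 0.31), and its call was lost without any 1 of the vehicle arrays, PMA array 2 or PMA array 3. Of the 14 growth arrest genes measured, 4 rose, among them CDKN1A (p21), which read 6.32, 6.47 and 6.42 in vehicle and 10.56, 11.22 and 11.21 in PMA, and CDKN2B (p15), up by 3.67 ± 0.29, while CDKN1B (p27) fell by 1.17. In that list 2 of 11 rose without probe sets of shared sequence. The groups of CDK6 and CDKN1A lay apart on every array, in opposite directions.

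In the list of origin licensing factors, which load and fire the replicative helicase, 22 of 23 fell and 0 rose, with a median of -2.09. MCM5, a helicase subunit, read 9.51, 10.12 and 9.99 in vehicle and 6.62, 7.25 and 7.26 in PMA. CDC7, the kinase that fires origins, changed by -2.76 ± 0.18. GINS2, a part of the active helicase, read 8.99, 9.95 and 9.85 in vehicle and 6.13, 6.68 and 6.65 in PMA. The fall of GINS2 was measured on a probe set of shared sequence, and without such probe sets it gave -0.07. Of 27 polymerase and fork genes 25 fell and 0 rose, with a median of -1.67. POLE2, a subunit of the leading strand polymerase, read 8.33, 9.24 and 9.23 in vehicle and 5.69, 6.43 and 6.37 in PMA. TIMELESS, which steadies the fork, changed by -2.26 ± 0.17, or by -0.35 without probe sets of shared sequence. Nucleotide supply followed, with 22 of 24 down and a median of -1.22: TYMS, thymidylate synthase, read 12.56, 12.97 and 13.11 in vehicle and 10.30, 10.44 and 10.58 in PMA, and RRM2, a ribonucleotide reductase subunit, changed by -2.05 ± 0.21. MCM5, POLE2 and TYMS had no PMA array within 1 log2 unit of the lowest vehicle array.

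Nearly all mitotic genes fell as well. All 28 measured genes of mitotic kinases, spindle motors and cytokinesis fell, with a median of -1.82 and a range of -2.42 to -0.75. So did 27 of 28 kinetochore and checkpoint genes (median -1.92) and 15 of 19 cohesin and condensin genes (median -1.23). KIF11, the motor that pushes spindle poles apart, read 8.84, 9.82 and 9.73 in vehicle and 7.17, 6.96 and 7.0 in PMA. ZWINT, a kinetochore scaffold, changed by -2.47 ± 0.15 and NCAPH, a condensin subunit, by -2.34 ± 0.17. KIF11 was more even in PMA than in vehicle, since its 3 PMA arrays lay within 0.3 of each other. Of 23 DNA repair genes 16 fell and 2 rose (median -1.10), and the rises numbered 1 without PMA array 1 and 0 without PMA array 3 or any 1 of the vehicle arrays. The lowest were FANCI (-2.34 ± 0.18), EXO1 (-2.30 ± 0.23) and BRCA1 (-2.21 ± 0.20). Of 27 genes in a wider list of chromatin copying, DNA methylation and nuclear structure, 21 fell and 2 rose. HELLS, a remodeller needed for DNA methylation, changed by -3.01 ± 0.37 and UHRF1, which brings DNMT1 to new DNA, by -2.61 ± 0.26. NASP, a histone chaperone, changed by -2.19 ± 0.17. DNMT3A, a de novo methyltransferase, rose by 1.44 ± 0.12 and LMNA, the A-type lamin, by 2.15 ± 0.37. These lists were drawn up knowing that the cell cycle falls in these arrays, so their direction is not independent evidence of it.

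The promoters of these groups differed in their letters. E2F letters stood in 51.9% of the 27 promoters of licensing genes, 48.4% of the 31 of polymerase and fork genes and 44.7% of the 38 of repair genes, against 11.5% of all promoters. CHR letters stood in 52% of the 25 promoters of kinetochore genes and 51.4% of the 35 of mitotic genes, against 12.3% of all promoters and 3.7% of those of licensing genes. The median GC content of the licensing and mitotic promoters was 62.3% and 61.7%, near the 62.7% of all promoters. The 100 largest rises held CHR letters in 26.8% of their promoters, so these letters were not confined to genes that fell. Of 60 genes of the licensing, polymerase and nucleotide lists that fell and had a promoter in the table, 34 held E2F letters, and of 45 kinetochore and mitotic genes that fell, 27 held CHR letters. A gene counts here if any of its promoters holds the letters, so the shares per promoter are not the background of these counts. The 3 largest falls of the first kind and 2 of the second are shown, the latter chosen after the shares were seen, to show where the letters lie. They are GINS2 at chr16:85688905-85689204 (minus strand), POLE2 at chr14:49688165-49688464 (minus strand) and CDC7 at chr1:91500601-91500900 (plus strand), with E2F letters in capitals, and ZWINT at chr10:56361210-56361509 (minus strand) and KIF11 at chr10:92592880-92593179 (plus strand), with CHR letters in capitals. The first capital lies at -31 in GINS2, -5 in POLE2, -102 and -9 in CDC7, -31 in ZWINT and -28 in KIF11.
GINS2: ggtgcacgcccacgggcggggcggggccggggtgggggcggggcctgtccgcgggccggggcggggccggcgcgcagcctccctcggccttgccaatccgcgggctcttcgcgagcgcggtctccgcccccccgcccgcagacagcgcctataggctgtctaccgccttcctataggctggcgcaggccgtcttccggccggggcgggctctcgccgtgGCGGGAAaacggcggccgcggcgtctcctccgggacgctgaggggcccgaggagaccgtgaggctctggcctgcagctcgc
POLE2: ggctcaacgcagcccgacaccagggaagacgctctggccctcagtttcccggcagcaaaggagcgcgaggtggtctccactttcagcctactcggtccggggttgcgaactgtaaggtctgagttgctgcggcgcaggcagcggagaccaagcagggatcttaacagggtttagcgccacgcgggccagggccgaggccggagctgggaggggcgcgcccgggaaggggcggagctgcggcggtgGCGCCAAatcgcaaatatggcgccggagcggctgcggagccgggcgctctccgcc
CDC7: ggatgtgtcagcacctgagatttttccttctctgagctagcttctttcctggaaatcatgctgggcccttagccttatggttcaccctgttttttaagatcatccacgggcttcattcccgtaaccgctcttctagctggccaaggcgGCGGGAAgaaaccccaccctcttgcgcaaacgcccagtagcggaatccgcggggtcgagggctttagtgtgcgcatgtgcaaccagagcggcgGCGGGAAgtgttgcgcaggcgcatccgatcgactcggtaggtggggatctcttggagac
ZWINT: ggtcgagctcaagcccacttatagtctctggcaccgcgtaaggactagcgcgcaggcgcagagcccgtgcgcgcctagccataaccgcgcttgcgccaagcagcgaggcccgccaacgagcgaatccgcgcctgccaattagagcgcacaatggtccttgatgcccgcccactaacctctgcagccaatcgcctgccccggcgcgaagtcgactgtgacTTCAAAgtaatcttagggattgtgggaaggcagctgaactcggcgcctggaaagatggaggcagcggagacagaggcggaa
KIF11: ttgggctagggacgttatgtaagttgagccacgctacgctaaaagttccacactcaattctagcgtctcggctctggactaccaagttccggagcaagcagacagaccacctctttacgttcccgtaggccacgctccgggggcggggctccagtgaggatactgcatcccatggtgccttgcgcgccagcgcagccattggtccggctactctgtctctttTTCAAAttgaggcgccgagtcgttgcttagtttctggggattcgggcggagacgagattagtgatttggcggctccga

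**Figure D3:**
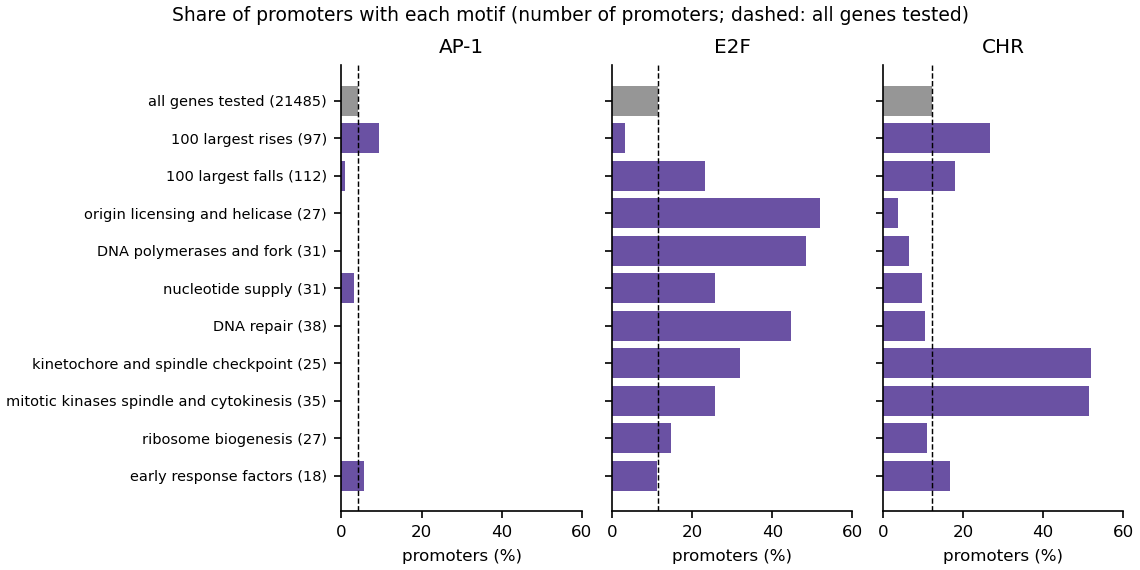
Share of promoters, in percent, that hold AP-1, E2F or CHR letters, by gene set, with the number of promoters in brackets. The grey bar and the dashed line are all genes tested (4.09%, 11.5% and 12.3%); the licensing and polymerase lists reach 51.9% and 48.4% for E2F, and the kinetochore and mitotic lists 52% and 51.4% for CHR.

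Many genes of the growth machinery fell as well, while none of the 25 cytosolic ribosomal protein genes listed and measured was called down. MYC, the growth factor-driven regulator of biosynthesis, fell by 1.54 and MXD1, which opposes it, rose by 2.01 ± 0.17. The MYC network split, with 4 of 11 genes up and 4 down, or 2 and 4 without PMA array 2 or vehicle array 2, and 3 and 1 of 9 without probe sets of shared sequence. Of 28 ribosome biogenesis factors 22 fell and 1 rose (median -0.87), with NOLC1 (-1.52 ± 0.16), NOP16 (-1.39 ± 0.20) and FBL, the nucleolar methyltransferase fibrillarin (-1.27 ± 0.16), the furthest down. Of 20 RNA polymerase I and III genes 11 fell and 0 rose. Of 25 cytosolic ribosomal protein genes 0 fell and 1 rose, with a median of -0.05 and a range of -0.44 to 0.55. Their median signal lay at the 99.7th percentile of all genes in both groups, and whether so bright a signal hides a fall was not tested. The one that rose was RPS27L, a p53-induced relative of RPS27, which gave 0.40 and no call without probe sets of shared sequence. Many of these genes have near-identical pseudogenes that probe sets can share, and only 18 of them had a probe set without shared sequence.

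Most genes of messenger RNA handling fell too. In the spliceosome and hnRNP list 27 of 33 fell and 0 rose (median -0.83), led by SNRPF, a core snRNP protein (-1.54 ± 0.13). Without probe sets of shared sequence 15 of 26 fell (median -0.60). HNRNPM changed by -1.29 ± 0.27, but by 0.65 without probe sets of shared sequence. In the list of nuclear pores and transport receptors 22 of 29 fell (median -0.87), with NUP35 (-1.41 ± 0.20), NUP37 (-1.35 ± 0.12) and the importin recycler CSE1L (-1.39 ± 0.16) the lowest. KPNA1 was called up at 0.65 ± 0.18 and read -0.18 without probe sets of shared sequence. Protein folding and turnover moved less. Of 21 chaperone genes 9 fell, with CCT5, a chaperonin subunit, the lowest (-0.95 ± 0.15), and BAG3, a co-chaperone of selective autophagy, rose by 1.17 ± 0.13. Of 32 proteasome genes 5 fell and 0 rose, so 15.6% were called, fewer than the 31.7% of all genes. The proteasome counts were 2 and 2 without PMA array 1, 2 fell without vehicle array 2 or 3, and 8 fell without PMA array 3. Of 18 tRNA synthetases 7 fell and 2 rose, 4 fell without PMA array 2, PMA array 3, vehicle array 2 or vehicle array 3, and 1 rose without PMA array 1, vehicle array 2 or vehicle array 3.

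Metabolic genes split by pathway. Of 19 fatty acid oxidation genes 9 fell and 0 rose (median -0.36), with CPT1A, the gate for fatty acids into mitochondria, the lowest (-1.55 ± 0.10). The arrays numbered 2 and 3 alone gave 7 falls and 4 rises in that list, and without PMA array 1 it gave 7 and 2. Lipid uptake and storage leaned upward, with 12 of 29 up and 3 down: besides FABP4, CD36, the fatty acid translocase, rose by 3.65 ± 0.51 and MGLL, which cleaves monoacylglycerol, by 2.62 ± 0.14. The falls of that list were small: 1 was left without PMA array 1, and 0 without vehicle array 2 or 3. In the TCA list 10 of 28 fell and 4 rose, or 2 without PMA array 2, PMA array 3, vehicle array 1 or vehicle array 2, and PC, pyruvate carboxylase, rose most (1.41 ± 0.11).

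Amino acid enzymes held some of the largest contrasts. Of 29 measured, 5 rose and 10 fell. The rises were those of tryptophan breakdown, TDO2 (8.17 ± 0.40), KYNU (3.23 ± 0.30) and KMO (1.13 ± 0.25), together with SAT1, which acetylates polyamines (2.56 ± 0.15), and CTH, which makes cysteine (1.15 ± 0.18). TDO2 read 3.17, 3.26 and 3.15 in vehicle and 10.33, 11.82 and 11.94 in PMA. All 3 PMA arrays of TDO2 lay at least 7 units above vehicle. Polyamine synthesis went the other way: ODC1, ornithine decarboxylase, read 11.55, 12.18 and 12.04 in vehicle and 10.15, 10.13 and 10.26 in PMA, and SRM, spermidine synthase, changed by -1.27 ± 0.21. PHGDH, the first enzyme of serine synthesis, changed by -1.22 ± 0.19. In the redox list 10 of 28 rose and 7 fell, led by SLC7A11, the cystine importer (1.90 ± 0.21), and ending with CAT, catalase (-1.34 ± 0.20), and 6 rose without PMA array 3 or vehicle array 1.

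Genes for surface receptors were called up in every family listed, in shares above the 12.7% of all genes. Of 27 integrin genes and their activators 13 rose and 4 fell, or 8 and 4 of 23 without probe sets of shared sequence. ITGAM, the alpha chain of the complement receptor Mac-1, read 7.23, 6.63 and 6.91 in vehicle and 11.34, 11.89 and 11.97 in PMA on a probe set of shared sequence, and without such probe sets its difference was 0.15 in place of 4.81. ITGAX, its CD11c relative, rose by 4.81 ± 0.17, ITGB5 by 3.28 ± 0.24 and ITGA3, a laminin receptor chain, by 2.96 ± 0.17. ITGA4, the alpha chain of VLA-4, fell by 0.85 and FERMT1, a kindlin, fell by 1.96. Of 23 scavenger receptors and lectins 14 rose and 1 fell, or 9 and 1 of 19 without probe sets of shared sequence. CD163, the haemoglobin scavenger, read 4.08, 4.30 and 3.80 in vehicle and 7.39, 9.12 and 8.79 in PMA, with PMA array 1 the lowest of its group yet well above vehicle, and without probe sets of shared sequence its difference was 0.34 in place of 4.38. OLR1, the oxidised LDL receptor, rose by 2.95 ± 0.19. MRC1, MSR1 and MARCO, also macrophage scavengers, were not called, at 0.01 ± 0.10, -0.04 ± 0.17 and -0.25 ± 0.18. CLEC12A, an inhibitory lectin, fell by 1.42.

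Paired activating and inhibitory receptors had the highest share of rises among the surface lists described here, 17 of 24, with 1 down (2 without PMA array 3 or vehicle array 2) and a median of 1.07. TREM1, an amplifier of inflammation, read 4.42, 4.70 and 4.90 in vehicle and 8.98, 10.89 and 10.98 in PMA, and TYROBP, the adaptor that carries its signal, rose by 3.57 ± 0.13. TREM1 was nearly 2 units lower on PMA array 1 than on the other PMA arrays. CD300A was called up by 3.75 ± 0.23, but a probe set without shared sequence gave -0.14. SIGLEC10 fell by 0.99. Of 24 Fc receptor and phagocytosis genes 9 rose and 5 fell, or 4 and 3 of 16 without probe sets of shared sequence. The rises were led by FCAR, the IgA receptor (3.83 ± 0.66), and FCGR2B, the inhibitory IgG receptor (3.02 ± 0.29). TYRO3, a receptor for dying cells, led the falls (-1.90 ± 0.18). Of 25 Toll-like receptor genes 11 rose and 2 fell. LY96, the co-receptor of TLR4 for endotoxin, rose by 3.05 ± 0.16, TLR1 by 2.96 ± 0.13 and CD14 by 2.21 ± 0.54, and IRAK3, a brake on the pathway, fell by 1.65.

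Receptors for growth factors and cytokines rose in 18 of 31 cases and fell in 1, or in 2 without vehicle array 2. IL7R rose by 4.09 ± 0.33 and CSF1R, the receptor for the macrophage growth factor, by 1.99 ± 0.27. FLT3, a progenitor receptor, fell by 0.69. Receptors that guide migration split, with 11 of 29 up and 7 down. C5AR1, the receptor for the complement fragment C5a, read 5.54, 5.11 and 4.80 in vehicle and 9.82, 10.01 and 9.91 in PMA, and CCR1, a receptor of inflammatory chemokines, rose by 4.03 ± 0.13. CXCR2, the neutrophil receptor for CXCL8, changed by -2.75 ± 0.18, while its ligand CXCL8 was among the largest rises. CCR2, the receptor for CCL2, changed by -1.30 ± 0.13 while CCL2 rose. Of 22 tetraspanin and EMP genes 13 rose and 3 fell, led by EMP1 (7.39 ± 0.27) and ending with TSPAN5 (-1.79 ± 0.19).

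**Figure D4:**
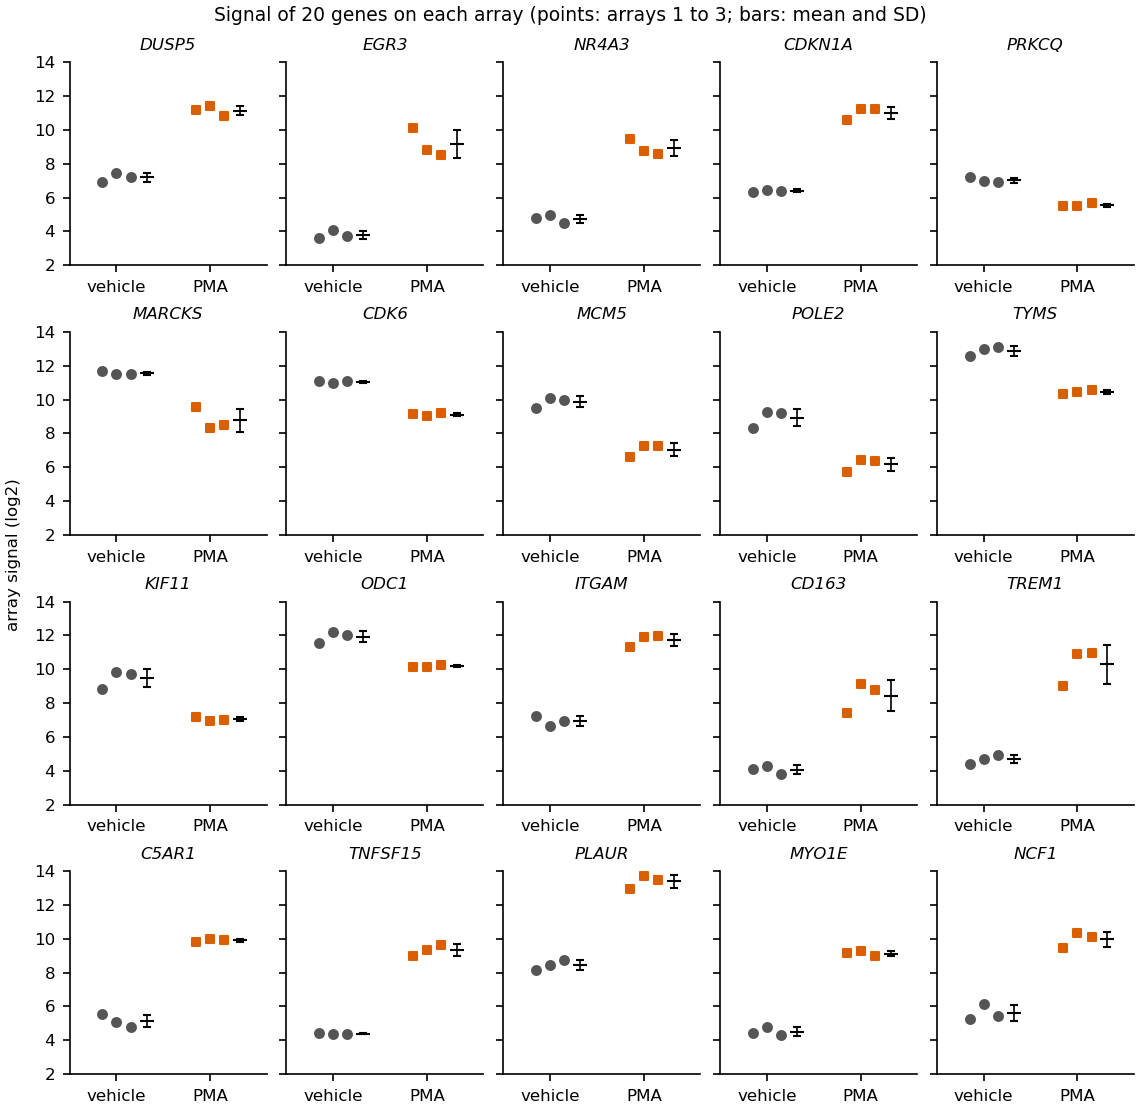
Log2 signal (vertical axis) of 20 genes on each of the 3 vehicle arrays (circles) and 3 PMA arrays (squares), arrays 1 to 3 from left to right in each group; the bar beside each group is its mean with the SD. In none of the 20 genes do the groups overlap; PMA array 1 lies apart from arrays 2 and 3 for MARCKS and EGR3 (above) and for CD163 and TREM1 (below).

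Secreted factors changed in part. Of 27 growth factors 9 rose and 0 fell, so 33.3% were called, near the 31.7% of all genes, and 4 of 22 rose without probe sets of shared sequence. After GDF15 came HBEGF, an EGF receptor ligand (3.46 ± 0.29), and INHBA, the activin subunit (2.31 ± 0.41). In the TNF superfamily 10 of 26 rose and 3 fell. TNFSF15 read 4.43, 4.40 and 4.35 in vehicle and 8.99, 9.36 and 9.66 in PMA, and TNFRSF21, a death receptor, rose by 2.54 ± 0.19. TNFSF13B, the B cell factor BAFF, changed by -2.11 ± 0.25. Of 27 interleukin and inflammasome genes 7 rose and 2 fell, again 33.3% called: IL1RN, the antagonist of interleukin-1, rose by 3.30 ± 0.42 (0.20 without probe sets of shared sequence), AIM2, a sensor of cytosolic DNA, by 2.24 ± 0.52 and IL1B by 2.20 ± 0.40. On the arrays numbered 2 and 3 alone 11 of that list rose. IL6 read 3.20, 3.39 and 3.43 in vehicle and 3.18, 3.35 and 3.42 in PMA, and the groups overlapped. In the prostaglandin and leukotriene list 7 of 21 rose and 3 fell, with PTGS2, cyclooxygenase-2, at 2.81 ± 0.27 and PLA2G4A, the phospholipase that frees its substrate, at -1.92 ± 0.12.

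Proteases and matrix genes gained more than they lost. Of 24 metalloproteinase and plasminogen genes 11 rose and 0 fell. PLAUR, the urokinase receptor, read 8.15, 8.44 and 8.77 in vehicle and 12.96, 13.74 and 13.49 in PMA. MMP7, matrilysin, rose by 4.18 ± 0.38. Of 22 protease inhibitors 5 rose and 4 fell: TIMP1, an inhibitor of metalloproteinases, rose by 2.38 ± 0.18, and SLPI, an inhibitor of neutrophil elastase, changed by -2.48 ± 0.38, or by -1.63 on the arrays numbered 2 and 3 alone. Of 28 matrix genes 7 rose and 1 fell (28.6% called), with THBD, thrombomodulin (2.35 ± 0.25), and SDC4, a syndecan (2.12 ± 0.16), next to SPP1. The remaining 20 were not called, so the change in this list rested on few genes. COL6A3, the collagen VI chain described above, rose by 5.62 ± 0.29.

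The cytoskeleton and the vesicle system changed in part. Of 30 actin and podosome genes 13 rose and 1 fell. MYO1E, a membrane-bound myosin, read 4.44, 4.80 and 4.29 in vehicle and 9.15, 9.25 and 8.98 in PMA, and GSN, gelsolin, which cuts filaments, rose by 4.02 ± 0.36. ANXA1, an annexin, rose by 2.64 ± 0.40. ACTB was not called (-0.28 ± 0.20) and CORO1A, a coronin of blood cells, fell by 0.89. Of 21 intermediate filament, lamin and tubulin genes 3 rose and 6 fell, and 3 fell without PMA array 1, vehicle array 2 or vehicle array 3. VIM, vimentin, rose by 2.46 ± 0.13 and STMN1, which takes microtubules apart, changed by -2.01 ± 0.15. Autophagy and TFEB family genes had 12 rises and 1 fall among 25, including SQSTM1, the cargo receptor p62 (2.06 ± 0.12), and MITF (2.38 ± 0.15), and 6 of 20 rose without probe sets of shared sequence. Vesicle and endosome genes had 12 rises and 3 falls among 30, with RAB13 (1.91 ± 0.16) at one end and RAB32 (-1.38 ± 0.15) at the other. Of 11 NADPH oxidase genes 5 rose and 0 fell: NCF1, the organiser subunit p47phox, read 5.25, 6.16 and 5.42 in vehicle and 9.48, 10.34 and 10.08 in PMA, and CYBB, the catalytic subunit, rose by 3.20 ± 0.57. NCF1 has near-identical pseudogenes, and its single probe set is of a shared kind. Of the 7 genes of this list with other probe sets, 1 rose.

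Progenitor transcription factors were called down more often than up, and macrophage factors up more often than down. Of 22 progenitor and granulocyte factors 9 fell and 2 rose (median -0.17), or 1 without PMA array 2, PMA array 3 or vehicle array 3. MYB, which holds blood progenitors in division, changed by -2.85 ± 0.26, GFI1, a repressor needed for granulocytes, by -2.22 ± 0.19 and MEIS1 by -1.83 ± 0.16. Of 28 macrophage and monocyte factors 17 rose and 3 fell (median 0.68), and without probe sets of shared sequence 9 of 20 rose (median 0.25). MAFF rose by 3.20 ± 0.13, BCL6, a repressor, by 2.70 ± 0.29 and BHLHE40 by 2.38 ± 0.19, whereas IRF8, a factor of the monocyte lineage, fell by 1.06 and ZEB2 fell by 0.75. Of 18 nuclear receptors 7 rose, led by PPARD, a receptor for fatty acids (1.54 ± 0.14), and 2 fell, or 1 without PMA array 1, PMA array 3, vehicle array 2 or vehicle array 3. Of 22 NF-kB subunits and regulators 11 rose and 1 fell, the fall not called without PMA array 3 or any 1 of the vehicle arrays. The regulators TNFAIP3 (2.06 ± 0.15), NFKBID (2.02 ± 0.31) and NFKBIZ (1.58 ± 0.16) were the highest. NF-kB letters stood in 26.3% of the 38 promoters of this list, which belong to 19 genes, against 0.828% of all promoters. In the Notch list 9 of 24 rose and 4 fell (2 without vehicle array 3), among them the co-activator MAML2 (3.55 ± 0.16), the target HES1 (3.23 ± 0.18) and the receptor NOTCH1 (1.71 ± 0.19). HES1 read 4.76, 4.42 and 4.78 in vehicle and 8.29, 7.58 and 7.77 in PMA on a probe set of shared sequence, and 0.11 was the difference without such probe sets.

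Granule, calcium-binding and survival genes moved apart. Of 22 primary granule and myeloblast genes 11 fell and 1 rose. MS4A3, a membrane protein of myeloblasts, read 10.54, 10.74 and 10.68 in vehicle and 5.09, 6.24 and 6.64 in PMA, and PLAC8 changed by -3.87 ± 0.33. PMA array 1 was the lowest for both, and no array of 1 group came near the other group. PRG2, an eosinophil granule protein, was the rise (0.84 ± 0.18). Of 16 S100 genes 7 rose and 0 fell: S100A9, a calprotectin subunit, rose by 2.98 ± 0.53, while its partner S100A8 was not called (0.27 ± 0.74). Of 23 BCL2 family and caspase genes 8 rose and 6 fell. BCL2A1, a survival protein, rose by 3.14 ± 0.13 and MCL1, another, was also called up (1.26 ± 0.17). BCL2 itself fell by 1.52 and CASP6, an executioner caspase, fell by 1.08.

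Markers of other cell types were mostly dim, with single genes standing out. Of 19 T and NK cell markers 1 rose (0 without PMA array 2 or vehicle array 3) and 0 fell, and the mean of the list lay between 5.31 and 5.35 on the vehicle arrays and between 5.33 and 5.43 on the PMA arrays. Of 15 B and plasma cell markers 3 fell and 1 rose, with means of 5.21 to 5.28 and 4.86 to 5.12. BLNK, a B cell adaptor that myeloid cells also use, read 7.99, 6.98 and 7.52 in vehicle and 3.42, 4.24 and 4.0 in PMA, and the B cell factors PAX5 (-1.37 ± 0.22) and EBF1 (-1.08 ± 0.20) fell too. Of 16 endothelial markers 5 rose and 1 fell, with means of 5.10 to 5.27 and 5.90 to 6.06. VWF, von Willebrand factor, read 4.57, 4.39 and 5.11 in vehicle and 11.71, 11.77 and 11.38 in PMA and PECAM1, which leukocytes share with endothelium, rose by 3.32 ± 0.15, while CDH5, the endothelial cadherin, was not called (-0.14 ± 0.13). Single genes also rose in the lists of fibroblasts (FAP, 3.90 ± 0.26) and mast cells (TPSAB1, 3.52 ± 0.22) with 1 of 19 and 2 of 17 members up, the latter 1 without PMA array 3, vehicle array 2 or vehicle array 3. Of 15 erythroid and megakaryocyte markers 2 rose, VWF and PPBP, and 1 fell, KLF1 (-0.82 ± 0.15). The platelet factor PPBP read 2.94, 3.17 and 2.79 in vehicle and 3.96, 8.47 and 8.86 in PMA, so PMA array 1 was close to vehicle, and the gene was not called without PMA array 2 or 3. The part of other cell types in these values was not tested.

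Lists of cell types close to macrophages were counted as well. Of 11 osteoclast markers 7 rose and 0 fell, and the mean of the list went from between 5.43 and 5.73 to between 7.10 and 7.26. The median difference of the list was 0.77, or 0.44 with the mean over probe sets, and without probe sets of shared sequence 2 of 6 rose and the median was 0.17. DCSTAMP read 5.42, 5.09 and 5.07 in vehicle and 10.78, 11.33 and 11.26 in PMA, ATP6V0D2, a proton pump subunit, rose by 4.77 ± 0.13, and CTSK, cathepsin K, by 1.09 ± 0.20. CALCR, the calcitonin receptor, rose by 0.43 ± 0.11, but TNFRSF11A, the receptor RANK, was not called (-0.22 ± 0.15). Of 17 dendritic cell markers 5 rose and 1 fell, and 3 rose without PMA array 2, PMA array 3 or vehicle array 3. CD86, a co-stimulatory ligand, read 4.46, 4.60 and 4.78 in vehicle and 9.51, 10.14 and 10.29 in PMA and CD83 rose by 3.46 ± 0.21, while CD207, the Langerhans cell lectin, was not called (-0.17 ± 0.11).

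The same agents with the hairpin induced gave a second set of 6 arrays, with its own controls. There 6426 genes (32.5%) were called, 2571 up and 3855 down. Calls in the same direction in both sets numbered 5426, which is 86.7% of the calls without doxycycline and 84.4% of those with it, and 1 gene was called in opposite directions, the non-coding LINC01350 (0.41 ± 0.12 without and -0.38 ± 0.12 with doxycycline, SE), whose difference between the sets was not called (adjusted p 0.821). Of the 6260 genes called with the hairpin off, 6201 (99.1%) had the same sign with doxycycline, and all 30 of the largest rises and all 30 of the largest falls were called there too. The PMA difference correlated across genes at r = 0.97 (n = 19775 genes, which are not independent replicates, and the sets share the array design). Side by side, without and with doxycycline, the PMA difference was 6.09 and 5.66 for GJA1, 5.61 and 5.52 for TREM1, -2.83 and -2.98 for MCM5 and -4.66 and -5.50 for MS4A3. A test of the difference between the sets called no gene (0%) in limma. At an unadjusted p under 0.05 it had 518 genes (2.62%), and the smallest adjusted p was 0.133. HES1, the gene with that adjusted p, had differences of 3.23 ± 0.18 and 5.0 ± 0.18. With the replicate number as a block it was called, with an adjusted p in limma of 0.0269 over all groups and 0.00328 by pairs of arrays with and without doxycycline.

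**Figure D5:**
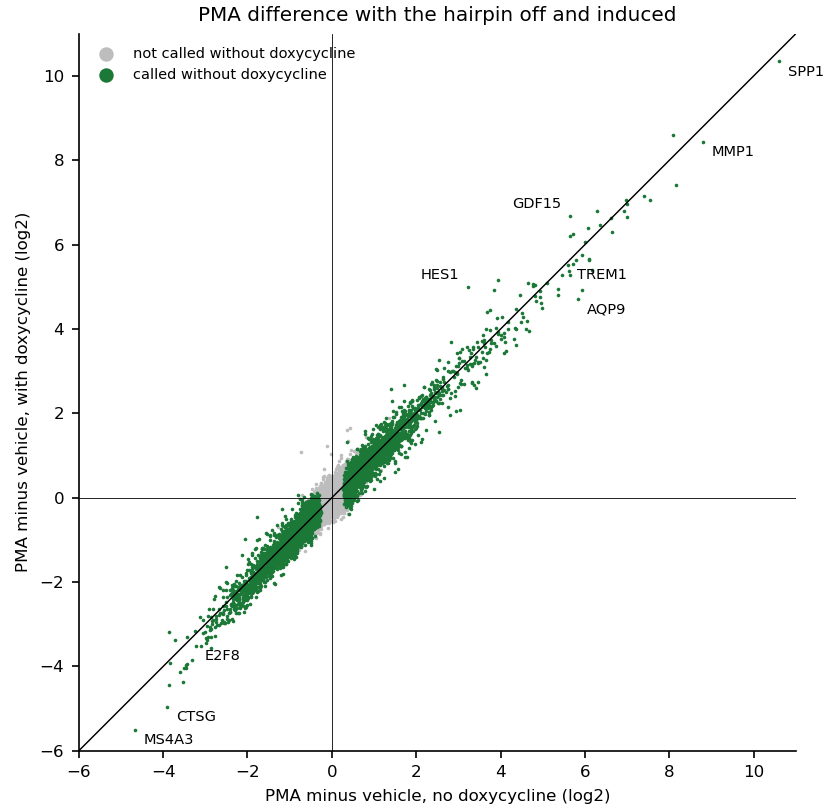
PMA minus vehicle (log2) for every gene without doxycycline (horizontal axis) and with it (vertical axis). Green points were called without doxycycline, grey points were not, and the line marks equal differences; the points lie along the line (r = 0.97 across genes), with HES1 above it at 3.23 and 5.0.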

How the data were processed

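Total RNA was labelled with a 3' IVT kit and hybridised to 12 arrays, per the labels' protocols. Per the submitters' processing notes, the authors made the deposited log2 values with RMA; no version or setting of it is given in the sources read. No further scaling was applied. RMA places all arrays on 1 distribution, which hides a change in total RNA per cell and compresses dim signals.

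The array holds 54675 probe sets, 62 of them controls. By the annotation, 41091 had 1 gene symbol, which was updated through RefSeq where possible, 1801 had several and 11721 had none. The single-gene probe set of highest mean over the 12 arrays stood for each of 19775 genes, 10523 of which had more than 1, and no dim gene was left out. limma 3.58.1 (R 4.3.3) fitted the means of all 4 groups to the 12 arrays and moderated the variances (lmFit, eBayes), with 8 residual and 5.6 prior degrees of freedom. Tests were two-sided, with Benjamini-Hochberg adjustment across genes. The number of arrays, 3 a group, limits the precision. The procedure was tested on simulated data.

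The 66 gene lists (1571 genes, 1457 of them measured and 114 not measured here) and the arrays compared were chosen with earlier results of these data known. The lists are described by counts and medians, with no list test, and 1 of them is not reported here. The naming rule took the 30 largest rises and the 30 largest falls among called genes whose groups do not overlap, up to 3 members a list in each direction, the genes that crossed from the 25th to the 75th percentile, and ACTB, GAPDH and ZXDC; it picked 321 genes, 318 of them called. Named outside it, after their values were seen, were BHLHE40, CALCR, CD207, CDH5, CDK6, CTH, CTSK, EGR1, IL6, ITGA3, KMO, LINC01350, MARCO, MCL1, MPO, MRC1, MSR1, S100A8 and TNFRSF11A. Probe sets with an identifier ending _s_at, _x_at or _a_at are called of shared sequence. Their probes may match more than 1 transcript, of 1 gene or of several. The ending alone does not show that a signal came from another gene, and this was not tested. Alternatives covered the probe set, scaling, variance prior, dim genes, arrays in the fit, each array left out and the replicate number as a block.

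Same-numbered vehicle and PMA arrays were checked for pairing by the correlation of their deviations from the group means. It was 0.16, -0.01 and 0.15 for numbers 1 to 3. Of these 6 arrays, 4 correlated best with the array of their own number in the other group. The correlations have no reference level, so they do not exclude pairing. The main fit took the arrays as unpaired. Arrays with and without doxycycline were not checked in this way.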

Additional observations from a re-analysis of the deposited data

How the results depend on the processing

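The count of genes called with the hairpin off lay between 4670 and 7019 under every alternative run, against 6260: 4670 of 16788 genes without probe sets of shared sequence, 5965 with the 6 arrays of both groups alone, 6200 with cyclic loess (48.2% of them up, against 40.2%), and 7000 with the replicate block over all groups. Leaving out 1 array in turn gave 5268 to 6228. Whether the replicate number pairs vehicle with PMA arrays was settled neither by the labels nor by the check above. With the replicate block over all groups, and with the replicate block by pairs of arrays with and without doxycycline, 1 gene was called for the difference between the PMA effects, HES1 (1.78, adjusted p 0.0269 and 0.00328), against 0 without a block. Of the values of named genes under all alternatives, 4558 kept their direction and side of the threshold, 159 lost the call and 6 reversed. The reversed ones were, without probe sets of shared sequence, CD300A (-0.14), GAS1 (0.13), HNRNPM (0.65), KPNA1 (-0.18) and VPS35 (0.02), and, with the mean over probe sets, SARS1 (-0.04). List medians moved by more than the replicate spread in 76 cases, and that of the NADPH oxidase list went from 0.26 to -0.00 without probe sets of shared sequence. Of 9 lists with a median of at most 0.14 in size, medians changed sign in 31 cases, among them the neutrophil and mast cell list (0.14 to -0.35) and the fibroblast and epithelial list (0.01 to -0.14), both without dim genes, and the MYC network (-0.02 to 0.19 without probe sets of shared sequence). Different probe sets of a gene measure different stretches of its transcripts; why they disagree was not tested. How far dim genes can be ordered among themselves on these arrays was not tested.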
